A study of Canis lupus familiaris with 16 samples.

Results

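The genes described here are 10 genes that fat cells use to store, release and take up lipid or to signal with it: ADIPOQ, LEP, PLIN1, PLIN4, CIDEC, LIPE, LPL, CD36, FABP4 and PPARG. They were chosen by name, as possible signs of fat that a tumor had invaded or that was carried in its section. Earlier results of these data were known when they were chosen. All 10 are among the 41818 genes of the count table. Of the 10, 9 had enough reads for the statistical tests, together with 15408 genes in all, and CIDEC did not.

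Adipocytes hold a single large lipid droplet whose surface is coated by perilipins, and hormone-sensitive lipase and other lipases break down the stored triglyceride when the animal needs fuel. Lipoprotein lipase at the vessel wall frees fatty acids from circulating lipoproteins, CD36 carries them across the membrane, and FABP4 binds them inside the cell. PPARG is the nuclear receptor that drives fat cell formation, and adiponectin and leptin are hormones made by the mature cell. Fat lies under the skin and between muscles, where canine soft tissue sarcomas commonly grow.

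The data were RNA sequencing counts from 16 spontaneous soft tissue sarcomas of dogs, each sampled as thick sections of formalin-fixed, paraffin-embedded tissue, with no treatment and no normal tissue among the samples. By the molecular identity given for each tumor there were 4 fibrosarcomas (FS, tumors of collagen-forming spindle cells, dogs aged 9 to 13 years), 6 peripheral nerve sheath tumors (PNST, 8 to 13 years) and 6 perivascular wall tumors (PWT, tumors of the cells around small vessels, 2 to 14 years). Tumor S1-10 was PWT by histology and PNST by molecular identity, and S2-08 was FS by histology and PWT by molecular identity. S1-04 and S1-05 carry the same breed, age, site (knee) and tumor size, so they may come from the same dog. The names begin with S1 for 9 tumors, each sequenced in 3 runs that were summed here, and with S2 for 7 tumors with 1 run each. Type and prefix overlap in part, because 5 of the 6 PNST are S1 and 5 of the 6 PWT are S2.

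Reads assigned to genes ranged from 507728 (S1-12) to 4311876 (S1-03) per tumor, so a single read was worth between 0.292 and 1.64 counts-per-million (CPM). Levels below are CPM after scaling by trimmed mean of M-values (TMM) factors, and 95% Poisson intervals cover counting error only. Since reads per gene also depend on transcript length, levels are compared between tumors and not between genes. In a bulk section, fewer fat cells and less RNA per fat cell cannot be told apart.

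ADIPOQ encodes adiponectin, a hormone made almost only by fat cells, and its level varied widely within each type. In the 4 FS its level was 17.8 CPM in S1-02, 18.0 CPM in S1-11, 3.29 CPM in S1-12 and 5.14 CPM in S2-06. In the 6 PNST it ranged from 0 to 57.6 CPM with a median of 17.7 CPM. In the 6 PWT it ranged from 0 to 19.4 CPM with a median of 2.78 CPM. The types overlapped, and the 3 tumors with the most ADIPOQ were all PNST. These were S1-04 with 57.6 CPM (interval 49.3 to 66.8), S1-10 with 30.6 CPM (24.3 to 38.0) and S1-05 with 29.6 CPM (22.0 to 39.0). The interval of S1-04 lay above those of all other tumors, while S1-10 and S1-05 did not differ beyond counting error. S2-09, S1-11, S1-02 and S1-07 followed at 11.3 to 19.4 CPM, and the other 9 tumors were at 5.71 CPM or less. No ADIPOQ read was counted in S1-09 or S2-04, which at 3 counts allows up to 0.926 CPM in S1-09 and 3.79 CPM in S2-04.

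LEP encodes leptin, the hormone that reports fat stores to the brain, and it was sparse, with 83 counts over all tumors. In the FS its level was 4.27 CPM in S1-02, 0.545 CPM in S1-11, 1.64 CPM in S1-12 and 8.42 CPM in S2-06. PNST ranged from 0.571 to 7.93 CPM with a median of 1.52 CPM, and PWT ranged from 0 to 1.61 CPM with a median of 0.374 CPM on 7 counts in all. S2-06 and S1-10 were highest. The PWT overlapped the lower tumors of the other types, and 3 of the 6 PWT had no LEP read.

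**Figure D1:**
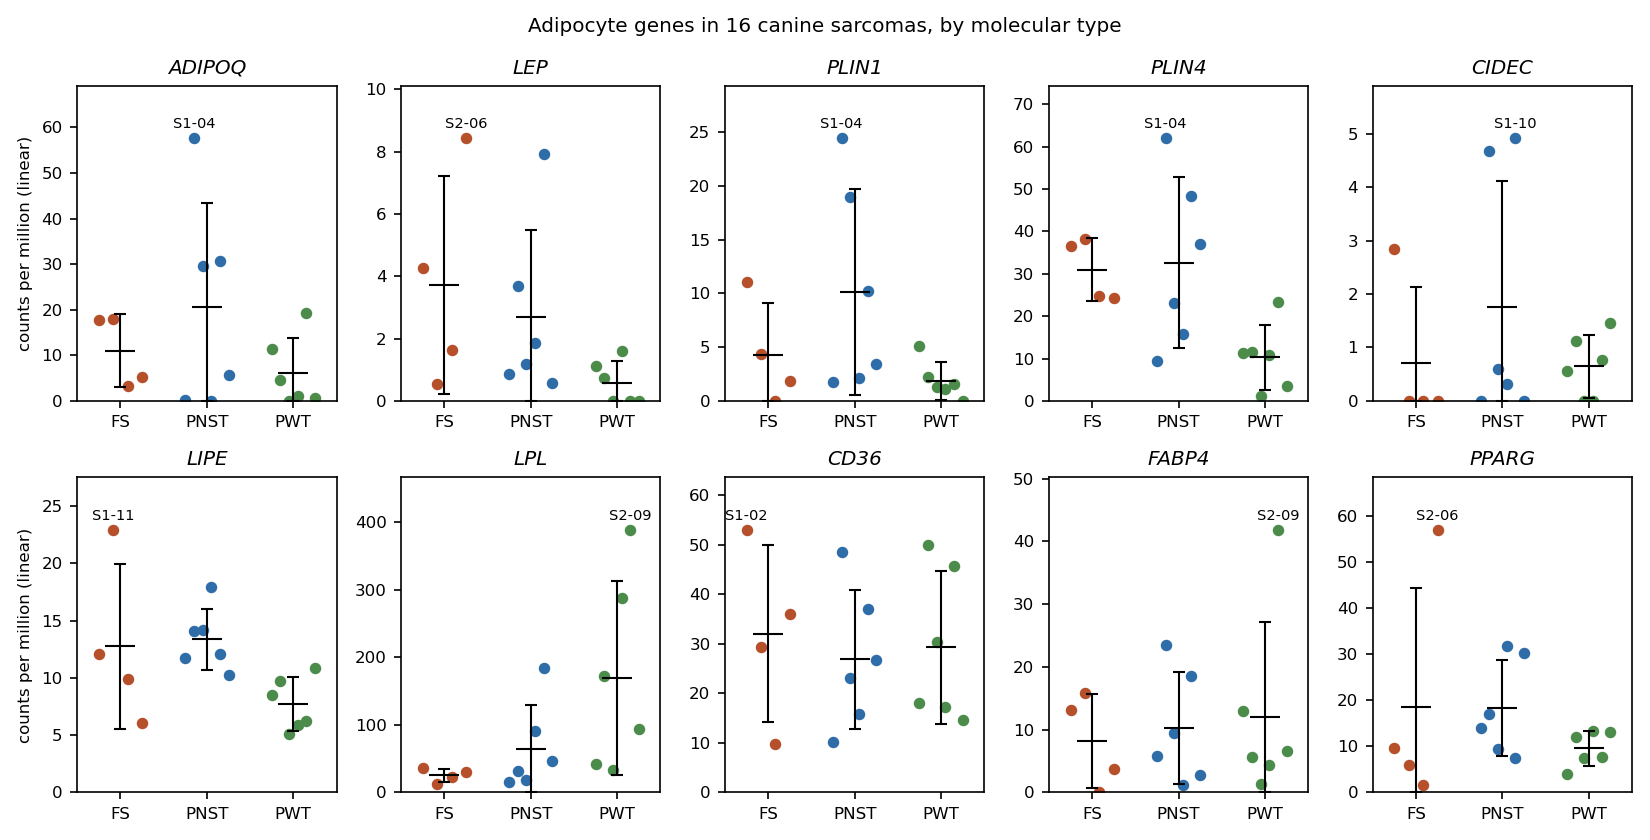
Level of each of the 10 genes in CPM (linear axes from 0) in every tumor, by molecular type. Points are tumors, the short bar is the mean and the whiskers are 1 SD, drawn no lower than 0, and the highest tumor is named. S1-04 is highest for ADIPOQ, PLIN1 and PLIN4, S2-09 for LPL and FABP4, and S2-06 for LEP and PPARG.

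Of the proteins on the lipid droplet, PLIN1 (perilipin 1) is the main gatekeeper of stored triglyceride in fat cells. Its level in the FS was 11.0 CPM in S1-02, 4.36 CPM in S1-11, 0 in S1-12 and 1.87 CPM in S2-06. PNST ranged from 1.75 to 24.4 CPM with a median of 6.81 CPM, and PWT from 0 to 5.10 CPM with a median of 1.41 CPM. S1-04 at 24.4 CPM and S1-05 at 19.0 CPM were above every other tumor, and S1-02 and S1-10 came next. The highest PWT was S1-07 at 5.10 CPM, and all 6 PWT together gave 20 PLIN1 counts.

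PLIN4 (perilipin 4) coats newly forming droplets and was read more often, with 847 counts. It was 36.6 CPM in S1-02, 38.2 CPM in S1-11, 24.7 CPM in S1-12 and 24.3 CPM in S2-06, the 4 FS. PNST ranged from 9.36 to 61.9 CPM with a median of 30.1 CPM. PWT ranged from 1.26 to 23.2 CPM with a median of 11.0 CPM. The lowest FS, S2-06 at 24.3 CPM (interval 18.2 to 31.9), and the highest PWT, S2-09 at 23.2 CPM (15.7 to 33.2), did not differ beyond counting error. The PNST spanned both types. Within the S2 tumors the 5 PWT had 1.26 to 23.2 CPM, the single FS had 24.3 CPM and the single PNST had 37.1 CPM. Within the S1 tumors the single PWT had 11.3 CPM, the 3 FS had 24.7 to 38.2 CPM and the 5 PNST had 9.36 to 61.9 CPM.

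CIDEC, which fuses small droplets into the large droplet of white fat, gave 44 counts in all and none in 7 tumors. Its highest levels were 4.91 CPM in S1-10 and 4.68 CPM in S1-04, followed by 2.85 CPM in S1-02, the only FS with a CIDEC read. Every other tumor was at 1.45 CPM or less.

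LIPE encodes hormone-sensitive lipase, which acts on the droplet and is used by steroid-making and other cells too, and it varied least of the 10 genes relative to its mean (coefficient of variation 42.3% over 16 tumors). In the FS it was 12.1 CPM in S1-02, 22.9 CPM in S1-11, 9.87 CPM in S1-12 and 6.08 CPM in S2-06. PNST ranged from 10.3 to 17.9 CPM with a median of 13.1 CPM, and PWT from 5.06 to 10.9 CPM with a median of 7.34 CPM. The PNST and PWT overlapped only at S2-11 (10.9 CPM) and S2-07 (10.3 CPM), and the FS spanned both. LIPE was read in every tumor, also in S1-09, which had no ADIPOQ read and 17.9 CPM of LIPE.

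Among the uptake genes, LPL followed an order of tumors unlike that of ADIPOQ. LPL encodes lipoprotein lipase, which fat, muscle and macrophages all make. It was 35.9 CPM in S1-02, 12.5 CPM in S1-11, 23.0 CPM in S1-12 and 29.9 CPM in S2-06, the FS. PNST ranged from 15.5 to 184 CPM with a median of 39.2 CPM. PWT ranged from 32.9 to 389 CPM with a median of 133 CPM. The tumors with the most LPL were S2-09 at 389 CPM (interval 355 to 424) and S2-08 at 288 CPM (264 to 313), both PWT, whose intervals were apart from each other and from the rest. S1-10 (184 CPM) and the PWT S2-03 (172 CPM) followed with overlapping intervals, then S2-11 (93.7 CPM) and S1-09 (91.4 CPM). The other 10 tumors held 12.5 to 46.2 CPM. Within the S2 tumors the 5 PWT had 32.9 to 389 CPM against 29.9 CPM in the FS and 46.2 CPM in the PNST, and within the S1 tumors the single PWT had 42.5 CPM, inside the range of the 5 PNST (15.5 to 184 CPM).

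The ratio of LPL to ADIPOQ counts, which needs no scaling between tumors, was computed where ADIPOQ had at least 10 counts. It was 0.558 in S1-04, 0.620 in S1-05 and 0.697 in S1-11, against 38.4 in S2-03 and 20.1 in S2-09. S2-08 had 536 LPL counts beside 2 ADIPOQ counts, and S1-09 had 296 beside 0. Across the 16 tumors, on the log2(CPM + 1) scale, LPL and ADIPOQ had a Pearson r of -0.06 and a Spearman rho of -0.03. By the same measures ADIPOQ had an r of 0.77 and a rho of 0.74 with PLIN1, 0.77 and 0.76 with PLIN4, and 0.73 and 0.79 with FABP4. These are descriptions, since all genes of a tumor share its library, depth and section, and S1-04 and S1-05 may not be independent.

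**Figure D2:**
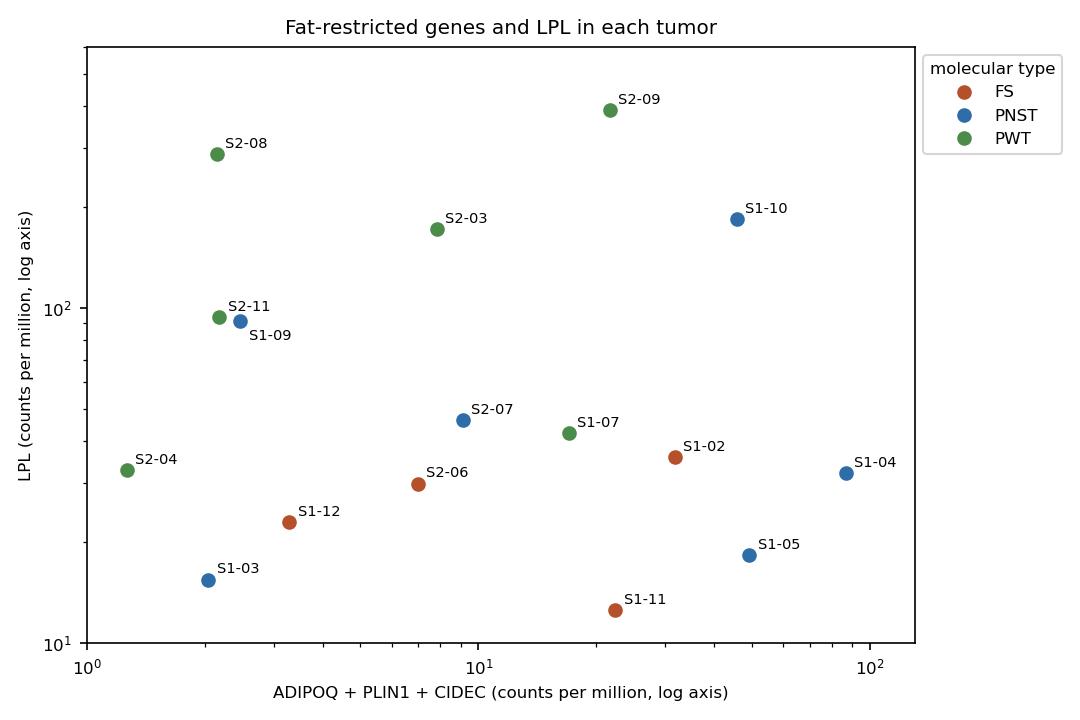
LPL against the sum of ADIPOQ, PLIN1 and CIDEC in each tumor, both in CPM on log axes, with points colored by molecular type and named. S1-04 has the largest sum (86.7 CPM) and 32.1 CPM of LPL, while S2-08 has a sum of 2.15 CPM and 288 CPM of LPL.

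FABP4, the fatty acid binding protein of fat cells and also of capillary endothelium and macrophages, was 13.2 CPM in S1-02, 15.8 CPM in S1-11, 0 in S1-12 and 3.74 CPM in S2-06. PNST ranged from 1.23 to 23.4 CPM with a median of 7.66 CPM, and PWT from 1.26 to 41.8 CPM with a median of 6.07 CPM. S2-09 was the highest tumor at 41.8 CPM, and the next PWT was S1-07 at 13.0 CPM. S1-04 (23.4 CPM) and S1-10 (18.5 CPM) came next over all tumors, and the 3 types overlapped.

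CD36, the fatty acid transporter that endothelial cells, platelets and macrophages also carry, was read in every tumor. It was 53.0 CPM in S1-02, 29.5 CPM in S1-11, 9.87 CPM in S1-12 and 36.0 CPM in S2-06. PNST ranged from 10.2 to 48.5 CPM with a median of 25.0 CPM, and PWT from 14.5 to 50.1 CPM with a median of 24.2 CPM. The ranges of the 3 types covered nearly the same span.

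PPARG, the master regulator of fat cell formation, was highest in tumors that held little ADIPOQ. Its level in the FS was 9.61 CPM in S1-02, 6.00 CPM in S1-11, 1.64 CPM in S1-12 and 57.1 CPM in S2-06. PNST ranged from 7.55 to 31.8 CPM with a median of 15.5 CPM, and PWT from 3.96 to 13.4 CPM with a median of 9.85 CPM. S2-06 was the highest of all 16 tumors, followed by S1-09 (31.8 CPM) and S2-07 (30.2 CPM), whose ADIPOQ levels were 5.14, 0 and 5.71 CPM. S1-04, the tumor with the most ADIPOQ, came next for PPARG at 17.1 CPM. S1-12, with 3.29 CPM of ADIPOQ, had the least PPARG. Across the 16 tumors PPARG and ADIPOQ had an r of -0.20 and a rho of -0.25.

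For FS against both other types, no adipocyte gene passed the test by edgeR (adjusted p below 0.05 and a log2 fold change beyond 1 in size), where 9.46% of all genes tested passed. Of the 9 genes, 5 had log2 fold changes above 0 and 4 below, with a median of 0.24 beside 0.0039 over all genes. At an unadjusted p under 0.05 there was 1 of 9, LPL, against 25.4% of all genes. LPL was 4.53-fold lower in FS, a log2 fold change of -2.18 (SE 0.81, adjusted p = 0.0944), and DESeq2 called it at an adjusted p of 0.0216, as 1 of 10 adipocyte genes it tested beside 9.79% of all genes. With tumors grouped by histology, where S2-08 counts as FS and S1-10 as PWT, LPL was at -0.38 (adjusted p = 0.875). For ADIPOQ the log2 difference was -0.18 with an approximate 95% interval from -2.20 to 1.84, and for PLIN1 it was -0.31 (-2.03 to 1.41), so changes of 2-fold or more in either direction lie within these intervals. PPARG differed by 0.48 (SE 0.57), which became -1.11 when S2-06 was left out.

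For PNST against both other types, no adipocyte gene passed the test by edgeR, and 0.00% of all genes tested did. The log2 fold changes were above 0 for 6 of the 9 genes and below for 3, with a median of 0.34 beside -0.06 over all genes. PLIN1 had a log2 fold change of 1.58. It reached 10 counts in 4 tumors, 3 of them PNST, so it entered the test mainly through the type where it was higher. Its direction in PNST is therefore a description. No other gene of the 9 had an unadjusted p under 0.05, which 15.7% of all genes had. ADIPOQ was at 1.19 (SE 0.87, adjusted p = 0.509). DESeq2 called 0 of the 9 adipocyte genes it tested, beside 1.54% of all genes. Without S1-04 and S1-05, the 2 tumors that may share a dog, PLIN1 fell under the count filter and could not be fitted, and ADIPOQ was at 0.02 (adjusted p = 0.997).

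For PWT against both other types, no adipocyte gene passed the test by edgeR, where 2.12% of all genes tested passed. The genes moved in unlike directions. LPL was 3.67-fold higher in PWT, a log2 fold change of 1.88 (SE 0.58, adjusted p = 0.0779). The droplet gene PLIN4 was 2.87-fold lower at -1.52 (SE 0.45, adjusted p = 0.0703). PLIN1 was at -1.91 (SE 0.77, adjusted p = 0.153), LEP at -2.07 (SE 0.79, adjusted p = 0.133) and LIPE at -0.67 (SE 0.28, adjusted p = 0.169). These 5 of 9 genes had an unadjusted p under 0.05, which 22.4% of all genes had, and the median over the 9 genes was -0.86 beside -0.08 over all genes. PLIN1 and LEP each reached 10 counts in 4 tumors, none of them PWT, so they entered the test through the types where they were higher. Their direction against PWT is a description in each comparison here. The count of 5 and the median of -0.86 include both genes, so the filter partly set them and they cannot be weighed against all genes. DESeq2 called 2 of the 9 adipocyte genes it tested, PLIN4 lower (log2 fold change -1.54, adjusted p = 0.0139) and LPL higher (1.88, adjusted p = 0.0257), beside 5.02% of all genes. LPL was also called by edgeR when S1-10 was left out (2.38, adjusted p = 0.0344). With the name prefix as a term in the model, LPL was at 1.61 (adjusted p = 0.613), PLIN4 at -1.48 (adjusted p = 0.379) and PLIN1 at -0.87 (adjusted p = 0.768), and type and prefix could not be fully told apart. With histology groups LPL was at 1.40 (adjusted p = 0.330), PLIN4 at -0.70 (adjusted p = 0.544), PLIN1 at -0.91 (adjusted p = 0.609) and LEP at -0.40 (adjusted p = 0.847).

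In the comparisons of pairs of types, which share tumors with those above, LPL was called once. It was 6.73-fold lower in FS than in PWT, with a log2 fold change of -2.75 (SE 0.79, adjusted p = 0.0302), the only call among the 9 genes there, beside 11.2% of all genes tested, which is a like share. The call was lost with any of S1-11, S1-12, S2-06, S2-08 or S2-09 left out (-2.33 to -2.83), with the prefix term (-2.34, adjusted p = 0.191) and with histology groups (-0.98, adjusted p = 0.536). PLIN4 was at 1.54 in FS against PWT (SE 0.53, adjusted p = 0.0634), and 0.68 with histology groups. LEP was at 2.42 there, given as a description since no PWT reached 10 LEP counts. PLIN4 was called there without S1-03 (1.54, adjusted p = 0.0485) or without S2-09 (1.90, adjusted p = 0.0300). For PNST against PWT, PLIN4 was at 1.50 (SE 0.48, adjusted p = 0.123), and 0.71 with histology groups, while PLIN1, at 2.22, is a description for the same reason. Of the 9 genes 0 were called by edgeR, beside 0.169% of all genes. An unadjusted p under 0.05 was found for 5, as for 19.6% of all genes. PLIN1 and LEP are among the 5, so the filter partly set that count. For FS against PNST, 0 of 9 were called by edgeR, beside 7.13% of all genes, and 0 had an unadjusted p under 0.05, as did 23.2% of all genes.

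**Figure D3:**
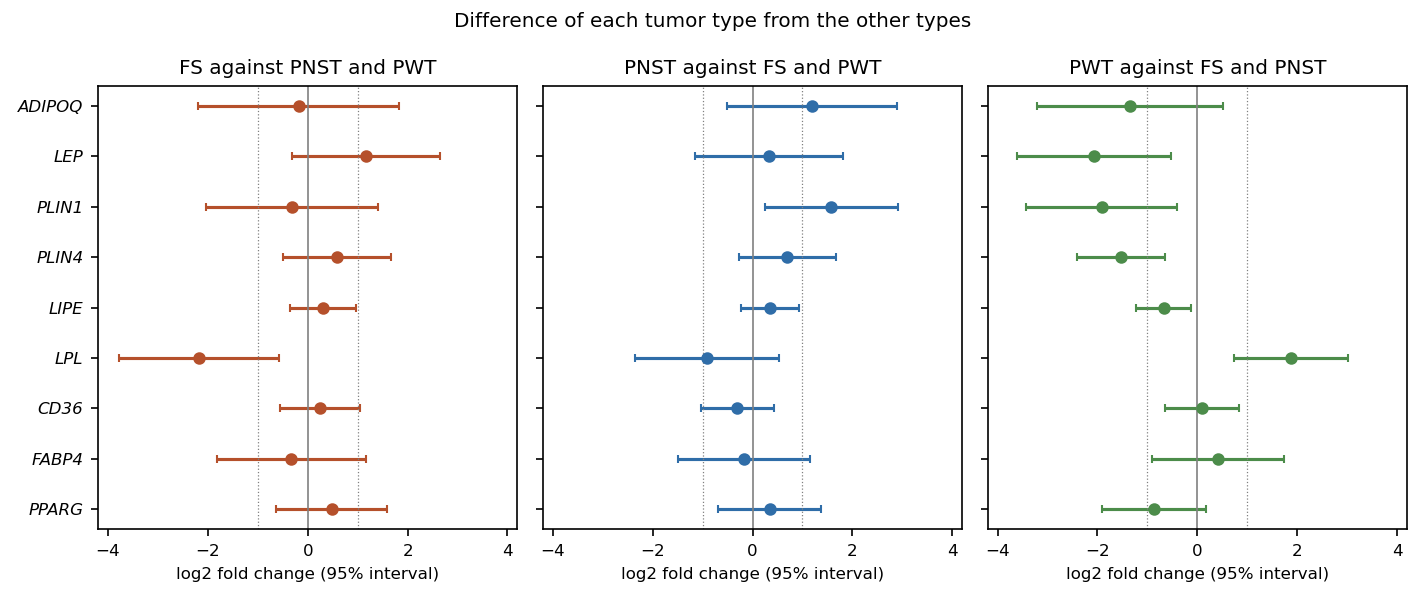
Log2 fold change of 9 adipocyte genes in each tumor type against both other types, with approximate 95% intervals from the standard error (CIDEC was not tested). Dotted lines mark a 2-fold change. In PWT, LPL lies to the right of 0 while LEP, PLIN1, PLIN4 and LIPE lie to the left, and none passed the adjusted threshold.

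CIDEC could be fitted only when the filter on low counts was relaxed. With no filter its log2 fold change was 1.15 in PNST (SE 0.90, adjusted p = 0.561), -0.50 in FS (SE 1.09, adjusted p = 0.825) and -1.004 in PWT (SE 1.01, adjusted p = 0.659), each against both other types.

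Markers of other tissue that a section can hold are given beside these levels. The summed level of ADIPOQ, PLIN1 and CIDEC, the members used most narrowly by fat cells, was 86.7 CPM in S1-04, 49.2 CPM in S1-05, 45.7 CPM in S1-10 and 31.7 CPM in S1-02. S1-11 (22.4 CPM), S2-09 (21.7 CPM) and S1-07 (17.0 CPM) followed, and the other 9 tumors were between 1.26 and 9.13 CPM. By type the sum was 16.1 ± 13.3 CPM in FS (SD, n = 4), 32.5 ± 33.9 CPM in PNST (n = 6) and 8.68 ± 8.70 CPM in PWT (n = 6), so that the spread within a type was about as large as its mean.

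Of these 7 tumors, 3 also had high levels of epidermal genes and 3 had high levels of skeletal muscle genes. The sum of 10 epidermal genes (keratins and desmosome genes) was 1642 CPM in S1-02, 1600 CPM in S1-05 and 1235 CPM in S1-04, and also 1183 CPM in S2-03 and 934 CPM in S1-12, against 10.1 to 114 CPM in the other 11 tumors. KRT5, the keratin of basal epidermis, had no read in 8 of the 11. The sum of 10 skeletal muscle genes was 948 CPM in S1-11, 465 CPM in S1-07 and 126 CPM in S2-09, and 3.63 to 12.0 CPM in the other 13 tumors. MB (myoglobin) was read in these 3 tumors and in S2-03 and had no read in the other 12. S1-10 had neither, with 37.8 CPM of the epidermal sum and 8.69 CPM of the muscle sum.

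The sum of 10 endothelial genes ranged from 252 to 541 CPM in FS, 185 to 722 CPM in PNST and 173 to 525 CPM in PWT, and S1-04, S1-05 and S1-11 were the highest tumors. The sum of 10 macrophage genes ranged from 173 to 1493 CPM in FS, 276 to 705 CPM in PNST and 226 to 810 CPM in PWT, and was highest in S1-02. The 8 sebaceous gland genes summed to 222 to 375 CPM in FS, 63.1 to 205 CPM in PNST and 64.4 to 200 CPM in PWT, mostly from SOAT1 and FADS2, which many cells use. KRT79, which is narrower to sebaceous ducts, had no read in 8 tumors, S1-10 and S2-09 among them. S2-09 and S2-08, the tumors with the most LPL, had macrophage sums of 496 and 258 CPM and epidermal sums of 33.3 and 30.6 CPM. The part of skin, muscle, vessels or macrophages in the levels of the adipocyte genes was not tested.

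**Figure D4:**
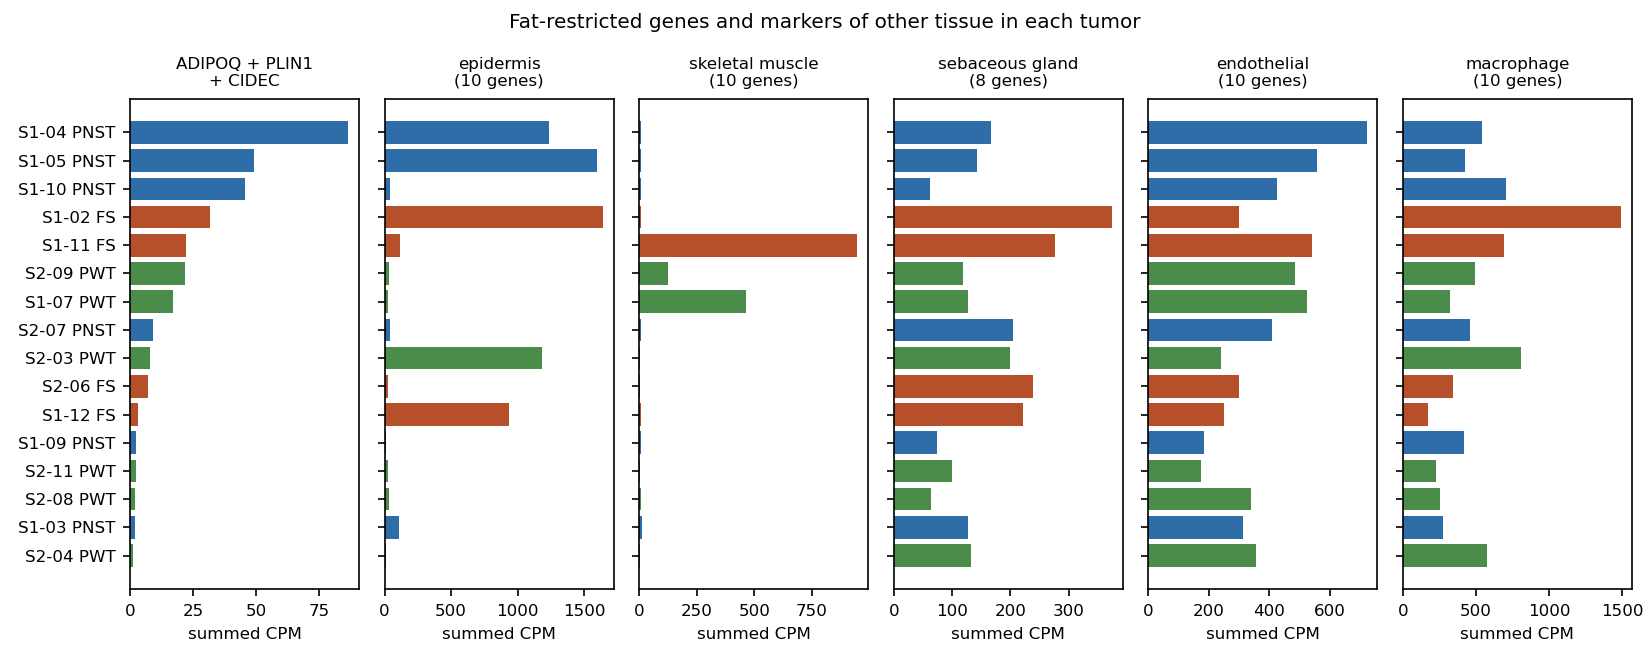
Summed CPM of ADIPOQ, PLIN1 and CIDEC and of marker genes of 5 other tissues or cell types in each tumor, ordered by the left panel and colored by type (FS brown, PNST blue, PWT green). Bars start at 0 and each panel has its own scale. S1-04, S1-05 and S1-02 are high for epidermis, and S1-11, S1-07 and S2-09 for skeletal muscle.

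S1-04 and S1-05, which share all label entries on the dog, were close in some of these genes and not in others. Both had high PLIN1 (24.4 and 19.0 CPM) and LIPE (14.1 and 14.2 CPM), and both had high epidermal genes. ADIPOQ was 57.6 CPM in S1-04 and 29.6 CPM in S1-05, PLIN4 was 61.9 and 23.1 CPM, and CIDEC was 4.68 and 0.592 CPM. The counting intervals of the ADIPOQ levels did not overlap. The 3 runs of a tumor agreed less closely than counting alone would give. Over the 42 of 90 pairs of gene and S1 tumor with at least 30 counts, the chi-square of run counts per degree of freedom averaged 1.60 and the median coefficient of variation was 24.5%. Levels of single runs are CPM without TMM factors. On that scale LPL in S1-10 was 158, 127 and 192 CPM in its 3 runs. All were above the 82.7 to 99.7 CPM of the 3 runs of S1-09, the S1 tumor next below it.

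The genes whose levels most resembled the mean log2(CPM + 1) of ADIPOQ, PLIN1 and CIDEC over the 16 tumors were ranked by Pearson r among 20736 genes. First was SCD (r 0.89, rho 0.84), the desaturase that makes monounsaturated fatty acids, with 647 CPM in S1-04, 353 CPM in S1-02, 302 CPM in S1-10 and 11.3 CPM in S2-08. CIDEA (r 0.80, rho 0.66), a droplet protein of fat cells and sebaceous glands, had 9.25 CPM in S1-02 and 6.36 CPM in S1-04. TRARG1 (r 0.79, rho 0.77), which traffics with the insulin-responsive glucose transporter of fat, had 13.4 CPM in S1-04 and 10.7 CPM in S1-05. The other genes among the first 10 were SCN3B, GYG2, KDM2B, CYTH4, LOC100683518, ARRB1 and ACKR1, with r from 0.78 to 0.84. ACKR1 is a chemokine receptor of venules and CYTH4 is used by blood cells. Just behind were FABP5 (rank 11), DGAT2 (14), RETN (18) and GPD1 (21), which are counted here among the other fat genes. Between them was the macrophage marker CSF1R (rank 16, r 0.77), with the endothelial markers VWF (rank 41) and PECAM1 (rank 68) further on. Of the 58 other fat genes ranked, these 7 were among the first 100. An r below 0 was found for 9 of the 58 (15.5%), beside 38.1% of all genes ranked. It was found for 0 of the endothelial, macrophage, skeletal muscle, epidermal and sebaceous genes ranked. The median r of the 58 was 0.23, beside 0.09 over all genes ranked. Among markers it was 0.50 over 10 endothelial, 0.45 over 10 epidermal and 0.42 over 10 macrophage genes. It was 0.34 over 6 sebaceous and 0.18 over 10 skeletal muscle genes. With a pseudocount of 0.1 in place of 1, 5 of the first 10 stayed among the first 10. SCD stayed first there, but CIDEA ranked 56 and TRARG1 ranked 40. With a score over all 10 adipocyte genes 1 stayed, SCD at rank 9, while CIDEA ranked 81 and TRARG1 ranked 184.

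Of 67 other fat genes in the table, 49 were tested. In FS against both other types 7 of the 49 were called by edgeR, 2 higher and 5 lower, beside 9.46% of all genes. The 5 lower genes work in fat but also in vessels, stroma and muscle. CAVIN2, a coat protein of caveolae, was 13.5, 9.82, 13.2 and 14.0 CPM in the FS S1-02, S1-11, S1-12 and S2-06, against 36.5 to 51.3 CPM in PNST and 36.7 to 65.0 CPM in PWT, with no overlap (log2 fold change -1.85, SE 0.25, adjusted p = 0.000274). EBF1, a transcription factor of early fat cells, B cells and pericytes, was 37.7, 91.6, 26.3 and 141 CPM in the same FS, against 231 to 391 CPM in PNST and 242 to 292 CPM in PWT, also with no overlap (-1.91, SE 0.34, adjusted p = 0.00162). S2-08, FS by histology, had 62.3 CPM of CAVIN2 and 262 CPM of EBF1, so with histology groups FS overlapped the other types. The molecular types were set partly from expression, so the lack of overlap is a description. The share of all genes without overlap was not computed. ME1, which supplies NADPH for lipid synthesis, was at -1.45 (SE 0.37, adjusted p = 0.0162). PNPLA2, the lipase that starts triglyceride breakdown, was at -1.27 (SE 0.38, adjusted p = 0.0376), and SLC27A1, a fatty acid transporter, was at -1.17 (SE 0.30, adjusted p = 0.0185).

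The 2 higher genes belonged to the synthesis list. ELOVL6, which lengthens fatty acids, was 14.9, 37.1, 9.87 and 10.3 CPM in the 4 FS and at most 4.86 CPM in the other 12 tumors (3.59, SE 0.75, adjusted p = 0.00489). ELOVL6 reached 10 counts in 5 tumors, among them the FS S1-02, S1-11 and S2-06. It therefore entered the test mainly through the type where it was higher, and its direction in FS is a description. The counts of fat genes called in FS include ELOVL6, so the filter partly set them. ACSL1, which activates fatty acids, was at 1.08 (SE 0.31, adjusted p = 0.0304). With tumors grouped by histology none of these 7 fat genes was called. Without S1-11, CAVIN2, EBF1 and ELOVL6 were called, while PNPLA2 (-1.36), ME1 (-1.34), SLC27A1 (-1.11) and ACSL1 (0.95) were not. The PNPLA2 call was also lost without S1-05, S1-10, S1-12, S2-06 or S2-08 (-0.96 to -1.24), the ME1 call without S1-12, the SLC27A1 call without S2-06, and the ACSL1 call without S1-02 or S2-08.

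Markers of other tissue were tested in FS against both other types as well. Called by edgeR were 1 of 10 macrophage, 1 of 4 sebaceous and 1 of 1 muscle genes. None of the 10 endothelial or 10 epidermal genes was called, beside 9.46% of all genes. FADS2, a desaturase counted among the sebaceous genes, was higher in FS (1.85, SE 0.34, adjusted p = 0.00227), as were the macrophage gene C1QB (1.50, SE 0.47, adjusted p = 0.0488) and MYH7, a myosin of slow muscle fibers (2.98, SE 0.77, adjusted p = 0.0193). Log2 fold changes were above 0 in FS for all 10 macrophage genes, 9 of 10 epidermal genes and 5 of 10 endothelial genes. They were also above 0 for the 4 sebaceous genes tested and for MYH7, the 1 muscle gene tested. Over all genes the median was 0.0039. Genes of a list share the same sections, so these counts are descriptions. Macrophage sums in S1-02, S1-11, S1-12 and S2-06 were 1493, 690, 173 and 341 CPM. Epidermal sums in the same FS were 1642, 114, 934 and 24.3 CPM. C1QB was 212 CPM in S1-02 and 57.8, 28.0 and 15.9 CPM in the FS S1-11, S1-12 and S2-06, and without S1-02 it was at 0.31 (adjusted p = 0.730). It was called in 7 of 26 alternatives. MYH7 was 126 CPM in S1-11 and 2.34 to 3.29 CPM in the other 3 FS, and without S1-11 it fell under the count filter and could not be fitted. The part of these markers in the levels of the fat genes was not tested.

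By list, in FS 1 of 12 adipogenic regulators, 2 of 11 droplet and lipolysis genes, 3 of 14 synthesis genes and 1 of 12 adipokine, uptake and insulin response genes were called. In PNST against both other types 0 of the 49 were called by edgeR, where 0, 2, 2 and 2 genes of these lists had an unadjusted p under 0.05, as did 15.7% of all genes. In PWT 1 of the 49 was called, beside 2.12% of all genes. It was CEBPA, a regulator that works with PPARG in fat cell formation, with 6.54 to 16.4 CPM in PWT and a median of 10.5 CPM, against 21.3, 43.1, 28.0 and 33.7 CPM in the FS and 15.9 to 30.6 CPM in PNST (-1.23, SE 0.26, adjusted p = 0.0277). The PWT lay below the FS and overlapped the PNST at S1-10. The call was lost with the prefix term (-1.30, adjusted p = 0.237), with histology groups (-1.06, adjusted p = 0.199), and without S2-03, S2-04 or S2-11.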

How the data were processed

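Reads from Ion Proton libraries of 16 FFPE tumors were aligned by the authors to ROS-canfam-01 with STAR and counted per gene with htseq-count, with versions and strand setting not given in the sources used here. The deposited values are raw counts in 34 run columns, and the 3 runs of each S1 tumor were summed. Rows that name no gene held most reads and were left out, with 22.9% to 30.6% of reads on genes, 41.8% to 66.7% on no feature, 9.11% to 31.6% not unique and 0.410% to 1.68% ambiguous. Without a strand setting, reads of overlapping antisense genes cannot be told apart.

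Genes reaching 10 counts in 4 or more tumors were tested with edgeR 4.0.16 (quasi-likelihood, TMM, R 4.3.3), adjusted by Benjamini-Hochberg over all 15408 genes, and called at an adjusted p below 0.05 with a log2 fold change beyond 1. Standard errors are the log2 fold change over the root of F. DESeq2 1.42.0 was an alternative, whose own filter sets how many genes it adjusts over. Levels use TMM factors over all genes. The test was checked on simulated counts. Groups follow molecular identity, which the study set partly from expression, and nothing beyond the labels says that tumors are separate dogs. The genes, lists and markers were chosen with earlier results of these data known. Named genes were all 10 adipocyte genes in every tumor, every other fat gene called in a comparison of 1 type against both others, and the 10 genes most like ADIPOQ, PLIN1 and CIDEC with at least 30 counts. TUSC5 of the lists is the older name of TRARG1. No dog sequence of the files' build was used here, so no promoter or protein is shown.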

Additional observations from a re-analysis of the deposited data

Results flagged for a closer look

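Within each type, the highest and lowest tumor was compared with its nearest neighbor relative to the range of the type (Dixon's criterion at 95%) for each of the 10 genes and 2 sums, 36 groups in all. Chance would mark about 1 group in 20 if levels were normally distributed and groups independent. Here many levels rest on low counts or 0, and the sums reuse the same genes, so the chance rate is not known. The criterion marked 3 groups. FABP4 in the PWT S2-09 was 41.8 CPM, with the next PWT at 13.0 CPM, and S2-09 also had the most LPL and some skeletal muscle. PPARG in the FS S2-06 was 57.1 CPM, with the next FS at 9.61 CPM. CIDEC in the FS S1-02 was 2.85 CPM on 8 counts, with the other 3 FS at 0, so that any read would have met the criterion, and the 0 of S1-12 allows up to 4.93 CPM at 3 counts. S1-02 also held the most epidermis and macrophage markers. The part of other tissue in these levels was not tested.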

How the results depend on the processing

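The counts of adipocyte genes called were recomputed under other normalization factors, filters on low counts, DESeq2, histology groups, the prefix term, S1-04 and S1-05 summed or (an alternative chosen after seeing the data) both left out, and each tumor left out in turn. In PNST against both other types, FS against PNST and PNST against PWT, 0 adipocyte genes were called under any of these. In FS against both other types DESeq2 called 1, and in PWT against both others DESeq2 called 2 and leaving out single tumors gave 0 to 1 (1 without S1-10). In FS against PWT the call of 1 became 0 with histology groups and with the prefix term, and 0 to 2 when single tumors were left out. The causes were not tested.

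Directions turned only for differences that were never called. In FS, ADIPOQ became 0.066 with S1-04 and S1-05 summed and 0.66 without both, and leaving out single tumors gave -0.48 to 0.32 for ADIPOQ, -0.77 to 0.069 for FABP4, -1.11 to 0.79 for PPARG, -0.090 to 0.49 for CD36 and -0.15 to 0.56 for LIPE. In PNST, LPL became 0.58 with the prefix term, LEP became -0.68 with histology groups, and FABP4 ranged from -0.59 to 0.38. In PWT, FABP4 ranged from -0.52 (without S2-09) to 0.66, and CD36 became -0.16 with the prefix term and ranged from -0.14 to 0.25. LEP in PNST against PWT became -0.23 with histology groups.

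The 7 other fat genes called in FS became 0 with histology groups and 3 to 9 with single tumors left out. The 1 called in PWT became 2 with RLE factors, 2 with upper quartile factors, 3 with DESeq2, 0 with histology groups, 0 with the prefix term, 0 without S1-04 and S1-05, and 0 to 2 with single tumors left out. Without factors, the summed level of the 10 adipocyte genes moved beyond its counting interval to 55.2 CPM in S1-03 (from 69.6), 324 in S1-10 (from 361), 117 in S1-11 (from 148), 323 in S2-03 (from 270) and 214 in S2-06 (from 173).

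Over all genes, calls were 1457 in FS (205 with histology groups, 911 without S1-11), 0 in PNST (2415 at an unadjusted p under 0.05, 291 with DESeq2) and 327 in PWT (0 with histology groups or the prefix term, 875 with DESeq2, 11 without S2-11). They were 1099 in FS against PNST (0 with histology groups, 656 without S1-10), 1726 in FS against PWT (5 with histology groups, 895 with the prefix term) and 26 in PNST against PWT (0 to 226 with single tumors left out). No paired analysis was possible because replicate numbers were given only in accession order. Depth limits CIDEC, LEP and PLIN1 most, with 44, 83 and 214 counts over 16 tumors, and S1-12 and S2-04 are the shallowest tumors.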
